A study of Ambystoma mexicanum with 5 samples.

Results

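The genes described here encode collagens, the enzymes and the chaperone that modify collagen chains, the lysyl oxidases that cross-link them, the small leucine-rich proteoglycans that coat collagen fibrils, and a few elastic fibre proteins. They were taken by gene name from the deposited count table: any collagen chain, LOX, PLOD and P4HA names, and SERPINH1, DCN, LUM, BGN, FMOD, OGN, ELN, FBN1, FBLN1, FBLN2, FBLN5 and CTHRC1, with at least 10 reads counted over the 5 libraries. This gave 93 gene models carrying 60 symbols, of 27604 gene models that reached 10 counts and 100758 in the table. Another 17 models with such a name had between 1 and 9 counts and 34 had 0. Just inside the limit lay 1 LOXE and 1 LOXHD1 model with 10 counts each and LOXL4 with 13, and just outside it lay a further LOXE model and a LUM model with 9 counts each.

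Collagen chains are hydroxylated on proline and lysine in the endoplasmic reticulum, fold into triple helices with the help of the chaperone SERPINH1, and are secreted, trimmed and cross-linked into fibrils or networks by lysyl oxidases. Fibrillar collagens I and III form the fibres of the interstitium, collagen IV forms the sheet of basement membranes under tubules, glomeruli and vessels, and collagen VI forms microfilaments around cells. In the injured mammalian kidney, collagen made by fibroblasts and pericytes can accumulate as a scar.

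RNA was sequenced from kidneys of 5 axolotls (Ambystoma mexicanum, a salamander that regenerates many organs), 1 library per animal. The injured group is 2 animals given gentamicin, an aminoglycoside antibiotic that damages proximal tubules, here gentamicin 1 and gentamicin 3. The reference is 3 untreated animals, control 1, control 2 and control 3. Strain, genotype and age, the dose of gentamicin and the time between treatment and sampling are not used here, and no vehicle-treated group was analysed.

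The control libraries held 13674201 to 15087765 counts and the gentamicin libraries 15163723 and 16404879, so that 3 counts, the floor set by a count of 0, equalled 0.156 to 0.244 CPM by counting error alone. CPM here are counts scaled to library size with TMM factors (trimmed mean of M-values), and levels below are CPM unless FPKM is named. A gene was called where edgeR's quasi-likelihood test gave an adjusted p under 0.05. Scaling to total counts instead raised the median log2 fold change of all genes by 0.32, so changes are relative to the TMM scale. Markers of the proximal tubule, the kidney segment that gentamicin damages, summed to 237 and 261 CPM in gentamicin libraries, against 5326 to 6576 CPM in controls, with 10 of 10 tested models lower. Macrophage markers summed to 1714 and 1492 CPM in gentamicin libraries, against 137 to 203 CPM in controls, with 8 of 10 tested models higher. Of all genes tested, 13.4% were called lower and 13.3% higher. Fibroblast and pericyte markers, of the cells that make most collagen, summed to 1095 and 743 CPM in gentamicin libraries, against 601, 838 and 882 CPM in controls. Only PDGFRA of these 11 models was called, with a log2 fold change of 1.04. Of the listed markers FAP, EMCN, C1QC and IBSP had no model with counts. In whole kidney, a change in the number of cells of a type and a change in RNA per cell cannot be told apart.

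Control 3 stood apart from the other controls in many of the matrix genes, but not in every role. It was the highest control in 45 of 76 tested members (59.2%), against 7182 of 22006 tested genes (32.6%). By role it was highest in 11 of 14 fibrillar and 18 of 28 other collagen models, but in 2 of 5 cross-linking enzyme models. Among basement membrane collagens it was highest in 0 of 3, and control 2 in 3. Calls that control 3 decides are given with and without it.

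Members were called in both directions in gentamicin-treated kidneys, in shares near those of all genes. The lysyl oxidases LOX and LOXL1, the collagen VI chains COL6A1, COL6A2 and COL6A6, the transmembrane collagen COL17A1, PLOD2, BGN and CTHRC1 were called higher. The basement membrane chains COL4A1 and COL4A2, COL2A1, COL26A1 and the fibulins FBLN1 and FBLN2 were called lower. Of these, only LOX, LOXL1, COL6A6, COL17A1 and COL4A2 kept their calls in every alternative setting described below. The interstitial collagen I chains did not pass the test in either direction. Of the 93 members 76 were tested and 17 were too low. Among tested members 14 were called higher (18.4%) and 9 lower (11.8%), against 13.3% higher and 13.4% lower of all 22006 genes tested, or 26.8% in either direction. These shares lie near the background. DESeq2 called 14 of 90 members higher and 11 lower, beside 11.2% and 12.1% of all genes. At an unadjusted p under 0.05 in edgeR, 16 members were higher and 16 lower, for which no share of all genes is given. The median log2 fold change was 0.02 over the members, against 0.01 over all genes. Groups did not overlap in 23 members that were higher and 18 that were lower, or 30.3% and 23.7%, against 28.6% and 26.7% of all genes (55.3% in either direction). With total-count scaling, 25 members were higher and 3 lower, beside 6192 (28.1%) and 1895 (8.61%) of all genes in place of 2931 and 2959. Without gentamicin 1 the members called numbered 6 higher and 1 lower, beside 5.73% and 7.48% of all genes. Without gentamicin 3 they numbered 9 and 3, beside 5.9% and 7.02%. Without control 3 they numbered 18 and 7, beside 12.2% and 12.9%.

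Summed over all 93 members, the level was 12142 and 12469 CPM in gentamicin 1 and 3, against 8639, 9802 and 13394 CPM in controls 1, 2 and 3. Both gentamicin libraries lay between control 2 and control 3, so the groups overlapped. As a share of all deposited counts, the members took 1.35% and 1.46% in gentamicin libraries, against 0.776%, 0.893% and 1.25% in controls, which did not overlap.

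**Figure D1:**
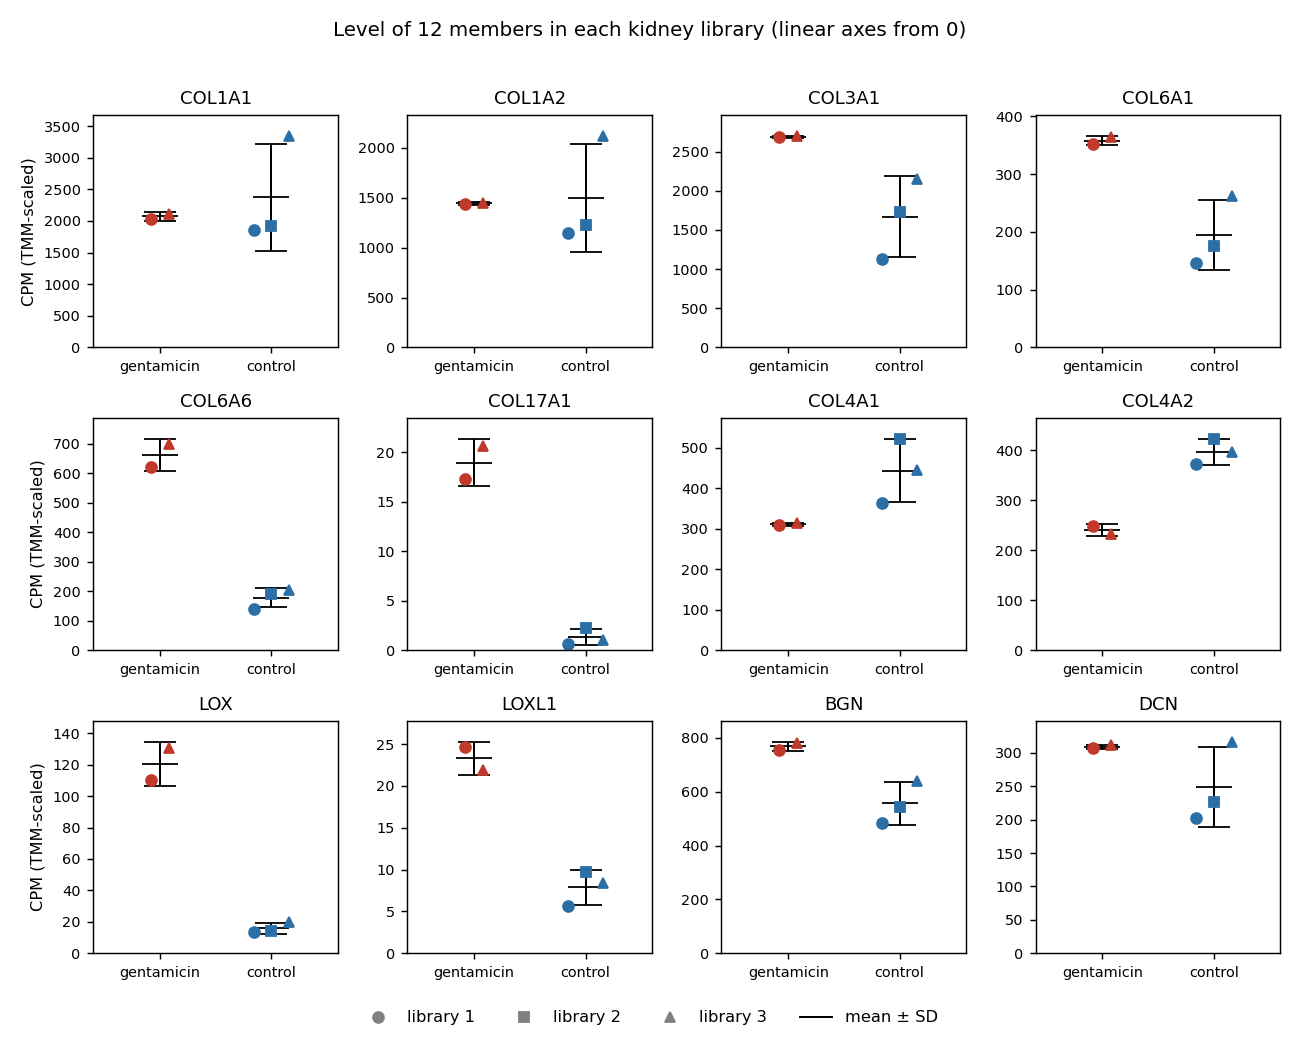
Each panel plots the TMM-scaled CPM of 1 member (linear axis from 0) in the 2 gentamicin libraries, red, and the 3 control libraries, blue, with the mean ± SD as black bars and the library number as the marker shape. COL6A6, COL17A1, LOX and LOXL1 sit higher and COL4A2 lower in both gentamicin libraries than in every control, while in COL1A1, COL1A2 and DCN control 3 lies above both gentamicin libraries.

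Collagen I, the main structural protein of connective tissue fibres, is a heterotrimer of the chains COL1A1 and COL1A2. COL1A1 (AMEX60DD009937, chromosome 13q, 239179656 to 239211499) had 2026 and 2116 CPM in gentamicin 1 and 3, against 1851, 1924 and 3343 CPM in controls 1, 2 and 3. COL1A2 (AMEX60DD022398, chromosome 2p, 1116411155 to 1116466674) had 1434 and 1451 CPM in gentamicin libraries, against 1150, 1223 and 2119 CPM in controls. For both chains the gentamicin libraries lay above controls 1 and 2 and below control 3. The log2 fold changes were -0.20 ± 0.27 (SE) for COL1A1 and -0.05 ± 0.27 for COL1A2 (edgeR adjusted p = 0.646 and 0.912), and the signs turned to 0.11 and 0.26 without control 3 and to 0.12 and 0.26 with total-count scaling.

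COL3A1, whose homotrimers form the fine reticular fibres that mix with collagen I (AMEX60DD055165, chromosome 9q, 219171795 to 219291632), had 2682 and 2696 CPM in gentamicin libraries, against 1128, 1729 and 2152 CPM in controls. The gentamicin values lay close together above every control, and the controls spread over a wide range. Means were 2689 ± 10.3 CPM with gentamicin and 1670 ± 515 CPM in controls (SD, n = 2 and 3), or 1.61-fold higher with gentamicin, which was not called (log2 fold change 0.69 ± 0.25, edgeR adjusted p = 0.0871). It was called without control 3 (adjusted p = 0.0227), in DESeq2 (0.024), with total-count scaling (0.0279) and with no filter on low counts (4.91e-06).

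Collagen V chains initiate collagen I fibrils and limit their diameter. COL5A1 had 292 and 322 CPM in gentamicin libraries, against 223, 264 and 350 CPM in controls. COL5A2, whose gene lies 66.5 kb from COL3A1 on the opposite strand, had 322 and 339 CPM with gentamicin, against 216, 248 and 342 CPM in controls. In both genes control 3 was above the gentamicin libraries, and neither was called (edgeR adjusted p = 0.642 and 0.298). COL5A2 was called without control 3 (0.0356) and with total-count scaling (0.0486), and COL5A1 changed sign to -0.0080 without control 1.

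COL2A1 and COL11A1 are chains of cartilage fibrils and were weakly represented in these kidneys. COL2A1 fell, as did 1 of 2 tested COL11A1 models. COL2A1 (AMEX60DD029426) had 8.21 and 8.01 CPM in gentamicin libraries, against 12.9, 12.9 and 15.5 CPM in controls, with no overlap. It was 1.70-fold lower with gentamicin (log2 fold change -0.76 ± 0.18, edgeR adjusted p = 0.0145), and not called without gentamicin 1 (0.0944), without gentamicin 3 (0.107) or after scaling to total counts (0.0968). The weak COL11A1 model AMEX60DD031831 had 0.952 and 0.988 CPM with gentamicin, against 2.61, 1.89 and 3.04 CPM in controls (2.57-fold lower, edgeR adjusted p = 0.0362). That call was lost without control 1 (0.0577), control 3 (0.0966), gentamicin 1 (0.181) or gentamicin 3 (0.176). The abundant COL11A1 model AMEX60DD018809 had 16.7 and 15.1 CPM with gentamicin, against 12.2, 17.5 and 28.3 CPM in controls (edgeR adjusted p = 0.591). It lies on chromosome 1q and the weak model on chromosome 3q. Another COL11A1 model, AMEX60DDU001010640, carries the same non-human name as the weak model. It had 7 counts with gentamicin and 19 in controls and was not tested. Reads may be split between related models. Cartilage and bone markers are named here after their values were seen. MATN1, a cartilage matrilin, was lower in gentamicin libraries (log2 fold change -4.09). A model given the human name ACAN, the cartilage proteoglycan aggrecan, was higher (AMEX60DD007108, 2.93). The model named ACAN alone, AMEX60DD004178, had 5 counts with gentamicin and 3 in controls and was not tested. MATN3 and SOST were not called (edgeR adjusted p = 0.821 and 0.445). The part of these markers in the COL2A1 result was not tested.

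In all, edgeR called 0 of 14 tested fibrillar models higher and 2 lower (median log2 fold change -0.13), beside 13.3% and 13.4% of all genes. At an unadjusted p under 0.05 there were 1 higher, COL3A1, and 2 lower, and DESeq2 called 1 higher and 2 lower of 17, beside 11.2% and 12.1% of all genes. Without control 3 edgeR called 2 higher, and without gentamicin 1 or gentamicin 3 it called 0 in either direction. Fibrillar models summed to 6795 and 6963 CPM in gentamicin libraries, against 4606, 5433 and 8370 CPM in controls. The summed fibroblast and pericyte markers given above overlapped between groups as well. Of the 11 models PDGFRA was higher without overlap, at 45.1 and 51.6 CPM with gentamicin and 14.1, 27.1 and 29.3 CPM in controls, THY1 and MEOX1 were lower without overlap and not called, and the other 8 overlapped. Their part in these levels was not tested.

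Of 3 tested basement membrane collagen models 2 fell and 0 rose in edgeR, beside 13.4% lower and 13.3% higher of all genes. The model counts were the same at an unadjusted p under 0.05 and in DESeq2. Without control 1 all 3 were called lower, and with any other library left out 1 was. COL4A1 and COL4A2, the chains of the collagen IV found in nearly all basement membranes, are transcribed in opposite directions from neighbouring start sites. COL4A1 (AMEX60DD047873, chromosome 7p, 619391566 to 619865348) had 308 and 313 CPM in gentamicin libraries, against 364, 520 and 446 CPM in controls. COL4A2 (AMEX60DD047874, chromosome 7p, 619864177 to 620595712) had 249 and 232 CPM with gentamicin, against 372, 423 and 396 CPM in controls. All gentamicin values lay below all control values for both chains. COL4A2 was 1.65-fold lower (log2 fold change -0.72 ± 0.12, edgeR adjusted p = 0.00277) and kept its call in each of the 15 alternatives.

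COL4A1 was 1.43-fold lower (log2 fold change -0.51 ± 0.16, edgeR adjusted p = 0.0474), close to the threshold. It was not called without control 2 (0.0955), control 3 (0.0789), gentamicin 1 (0.21) or gentamicin 3 (0.195), and scaling to total counts also ended the call (0.388). The COL4A1 and COL4A2 models overlap at their 5′ ends, and since the sources used here do not give the strand setting of the counting, reads in the overlap cannot be told apart. COL4A6, a chain of specialised basement membranes such as those of smooth muscle in mammals, had 37.2 and 33.7 CPM with gentamicin, against 35.3, 61.7 and 58.9 CPM in controls. Control 1 lay between the gentamicin libraries, and COL4A6 was not called (edgeR adjusted p = 0.142) except without control 1 (0.00304) or with no filter on low counts (0.00277). The chains COL4A3, COL4A4 and COL4A5, which form the mature glomerular basement membrane in mammals, matched no gene name.

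Together the 3 collagen IV models summed to 595 and 579 CPM in gentamicin libraries, against 771, 1005 and 901 CPM in controls. Over the same libraries endothelial markers summed to 281 and 318 CPM with gentamicin, against 274, 365 and 349 CPM in controls, with 0 of 10 models called by edgeR or DESeq2 (1 lower at an unadjusted p under 0.05). Podocyte markers summed to 621 and 579 CPM with gentamicin, against 648, 685 and 568 CPM in controls. Distal nephron markers summed to 2004 and 2334 CPM with gentamicin, against 3146, 3744 and 3231 CPM in controls, without overlap. Of their 13 tested models 5 were called lower and 1 higher, beside 13.4% and 13.3% of all genes. The model called higher was the weak UMOD model AMEX60DD005631, at 3.33 and 4.63 CPM with gentamicin and 0.733, 1.31 and 1.73 CPM in controls. The proximal tubule markers, given above, fell as well. The part of either tubule segment in the collagen IV result was not tested.

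Among the other collagens, 5 of 28 tested models were called higher with gentamicin (17.9%), beside 13.3% of all genes. Of these 5, 4 were collagen VI models, 2 of them COL6A6, and COL6A3 was not called. Collagen VI was not a role of its own, so its models are not set against the share of all genes. Collagen VI is a microfilament network that anchors cells to the interstitial matrix. COL6A1 (AMEX60DD055540, chromosome 9q, 392359786 to 392475682) had 352 and 364 CPM in gentamicin libraries, against 146, 175 and 262 CPM in controls. COL6A2, which lies 703 kb from it (AMEX60DD055538, chromosome 9q, 391559953 to 391656326), had 320 and 295 CPM with gentamicin, against 126, 159 and 222 CPM in controls. Both chains, partners in the same heterotrimer, lay above every control in both gentamicin libraries. They were 1.84-fold and 1.82-fold higher (log2 fold changes 0.88 ± 0.24 and 0.86 ± 0.22, edgeR adjusted p = 0.0331 and 0.0296). COL6A1 was not called without control 2 (0.0947), gentamicin 1 (0.158) or gentamicin 3 (0.183), and COL6A2 was not called without control 2 (0.0866), gentamicin 1 (0.174) or gentamicin 3 (0.133).

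COL6A3, the chain that completes the usual collagen VI heterotrimer, had 493 and 542 CPM with gentamicin, against 269, 344 and 477 CPM in controls. The groups did not overlap, with control 3 just below gentamicin 1, and the 1.42-fold difference was not called (edgeR adjusted p = 0.148). The gene was called without control 3 (0.0148), with total-count scaling (0.0374) and with no filter on low counts (0.000957).

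COL6A6, a chain that can take the place of COL6A3 in mammals, rose more. The model AMEX60DD022617 (chromosome 2p, 1236566976 to 1237166523) had 623 and 701 CPM in gentamicin libraries, against 141, 191 and 203 CPM in controls. Every gentamicin value was more than 3 times the highest control. Means were 662 ± 55.2 CPM with gentamicin and 179 ± 32.8 CPM in controls (SD, n = 2 and 3), or 3.70-fold higher (log2 fold change 1.89 ± 0.17, edgeR adjusted p = 0.000107). A second COL6A6 model, AMEX60DD022615, had 113 and 130 CPM with gentamicin, against 54.4, 60.1 and 71.0 CPM in controls, or 1.97-fold higher (edgeR adjusted p = 0.00153), and reads may be split between these models. Both models kept their calls in all 15 alternatives. The other COL6A6 models had at most 19 counts in total and were not tested.

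COL17A1, a transmembrane collagen of the hemidesmosomes that fix stratified epithelia to their basement membrane, showed the largest rise of any tested member (AMEX60DD053027, chromosome 8q, 697967954 to 698166570). It had 17.3 and 20.6 CPM in gentamicin libraries, against 0.651, 2.25 and 1.08 CPM in controls, from 687 reads in all with gentamicin and 54 in controls. No control came near the gentamicin values. The gene was 14.04-fold higher (log2 fold change 3.81 ± 0.41, edgeR adjusted p = 0.000504) and kept its call in all 15 alternatives.

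COL18A1, a basement membrane collagen whose cleavage releases endostatin in mammals, had 408 and 421 CPM with gentamicin in its abundant model, against 379, 324 and 396 CPM in controls. The groups did not overlap, but the difference was 1.13-fold and not called (edgeR adjusted p = 0.342) except with total-count scaling (0.0163). COL12A1, a collagen bound to fibril surfaces, had 366 and 368 CPM with gentamicin, against 452, 453 and 426 CPM in controls (edgeR adjusted p = 0.104). COL12A1, like the COL21A1, COL7A1, COL8A1 and COL8A2 models below, was chosen after its values were seen.

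Of the collagens that fell, COL26A1, a short collagen first described in mouse gonads, had 0.714 and 1.25 CPM in gentamicin libraries, against 6.84, 3.49 and 4.26 CPM in controls. It was 4.88-fold lower (log2 fold change -2.29 ± 0.43, edgeR adjusted p = 0.00567), and not called without gentamicin 1 (0.065) or on unfiltered FPKM (0.249). A model named COL21A1, AMEX60DD038344, had 1 count with gentamicin and 46 in controls. The ratio of controls over gentamicin was 41.6, with a counting interval of 7.10 to 1677 at 95% confidence (edgeR adjusted p = 0.00632). Another tested COL21A1 model, AMEX60DD020532, had 0.238 and 1.04 CPM with gentamicin, against 1.14, 0.582 and 1.30 CPM in controls. It overlapped between groups (edgeR adjusted p = 0.572). COL7A1, of the anchoring fibrils under stratified epithelia, had 3.45 and 3.43 CPM with gentamicin in model AMEX60DD023359, against 1.71, 2.04 and 2.02 CPM in controls, and was not called (edgeR adjusted p = 0.0704). The more abundant COL7A1 model AMEX60DD023360 had 10.7 and 5.10 CPM with gentamicin, against 3.17, 5.96 and 8.81 CPM in controls, and AMEX60DD023361 had 2.92 and 1.82 CPM with gentamicin, against 1.47, 2.11 and 3.18 CPM in controls. Both overlapped between groups (edgeR adjusted p = 0.602 and 0.933). COL8A1 and COL8A2, network collagens of vessel walls and cornea, were lower without overlap and not called (edgeR adjusted p = 0.0811 and 0.0907). At an unadjusted p under 0.05, 6 of 28 tested models in this group were higher and 5 lower. DESeq2 called 5 of 38 higher and 3 lower, beside 11.2% and 12.1% of all genes. In edgeR 5 of 28 were called higher (17.9%) and 2 lower (7.14%), beside 13.3% and 13.4% of all genes. Those called higher numbered 3 and those called lower 0 without gentamicin 1, 3 and 2 without gentamicin 3, and 3 and 4 without control 2 (11.2% and 12.2% of all genes).

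**Figure D2:**
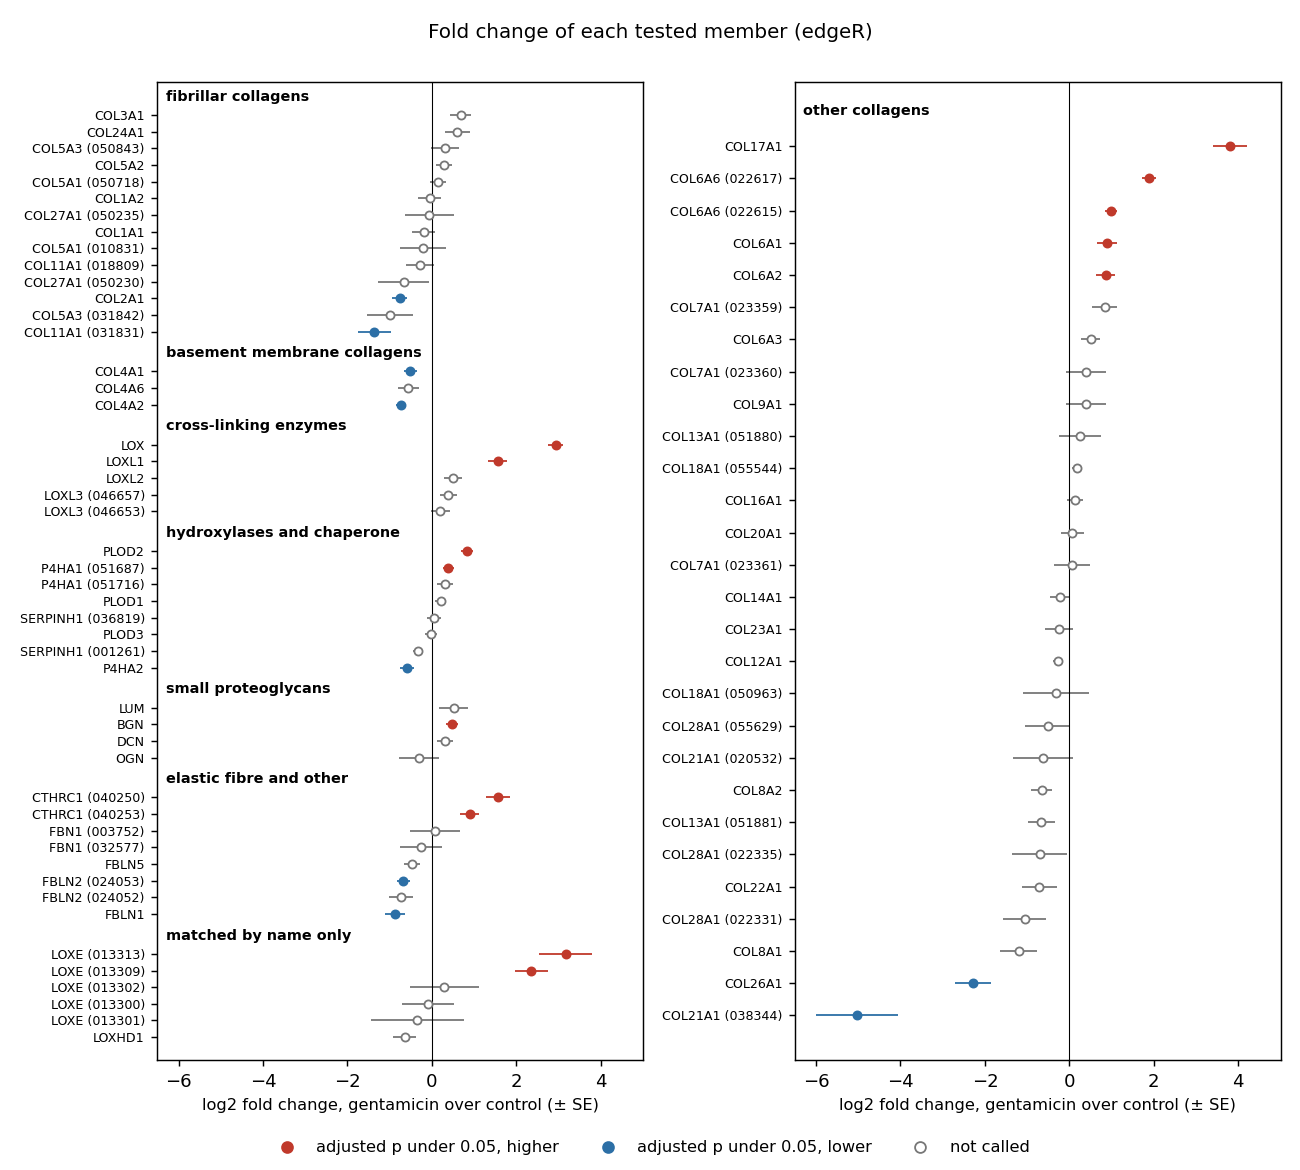
The log2 fold change of gentamicin over control is plotted for each of the 76 tested members (point, with a bar of ± 1 SE), grouped by role, with filled points for called members (red higher, blue lower) and open points for members not called. LOX at 2.93 and COL17A1 at 3.81 stand far right, most fibrillar collagens lie near 0, and the fitted value of COL21A1 rests on 1 read in the gentamicin libraries and is not a measured fold.

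Lysyl oxidases oxidise lysines in collagen and elastin so that the chains cross-link. LOX, the founding member (AMEX60DD042852, chromosome 6p, 905175091 to 905709505), had 110 and 130 CPM in gentamicin libraries, against 13.6, 13.96 and 19.7 CPM in controls. The groups lay far apart, with means of 120 ± 14.2 CPM with gentamicin and 15.8 ± 3.44 CPM in controls (SD, n = 2 and 3). LOX was 7.63-fold higher (log2 fold change 2.93 ± 0.18, edgeR adjusted p = 1.76e-05), the smallest p of the members.

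LOXL1, which in mice maintains elastic fibres (AMEX60DD003894), had 24.7 and 21.9 CPM with gentamicin, against 5.62, 9.67 and 8.38 CPM in controls. It was 2.94-fold higher without overlap (log2 fold change 1.56 ± 0.23, edgeR adjusted p = 0.00151). LOX and LOXL1 kept their calls in all 15 alternatives. LOXL2, which also cross-links collagen IV, had 9.88 and 10.3 CPM with gentamicin, against 7.49, 5.67 and 8.24 CPM in controls (edgeR adjusted p = 0.132). LOXL3 had 12.6 and 14.98 CPM with gentamicin in its abundant model, against 12.2, 8.36 and 11.1 CPM in controls (edgeR adjusted p = 0.211). For LOXL2 and this LOXL3 model the gentamicin libraries lay above all controls by little, and both were called only with total-count scaling (0.0216 and 0.0307). The second LOXL3 model, AMEX60DD046653, had 6.66 and 7.54 CPM with gentamicin, against 7.08, 5.02 and 6.43 CPM in controls. It overlapped between groups (edgeR adjusted p = 0.573). LOXL4 had 8 counts with gentamicin and 5 in controls and was not tested. Of the 5 tested models of this role 2 were higher and 0 lower, beside 13.3% and 13.4% of all genes. The model counts were the same at an unadjusted p under 0.05 and in DESeq2. Macrophage markers rose over the same libraries, and their part in the LOX result was not tested.

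The hydroxylases and the chaperone moved by smaller steps, with 2 of 8 tested models higher and 1 lower, beside 13.3% and 13.4% of all genes. At an unadjusted p under 0.05 there were 2 higher and 2 lower. DESeq2 called 1 of 9 higher and 2 lower, beside 11.2% and 12.1% of all genes. PLOD2, the lysyl hydroxylase that acts on the collagen telopeptides where cross-links form, had 27.4 and 25.6 CPM in gentamicin libraries, against 13.8, 14.2 and 16.8 CPM in controls. It was 1.77-fold higher without overlap (log2 fold change 0.83 ± 0.15, edgeR adjusted p = 0.004), and without gentamicin 1 it lay just past the threshold (0.051). PLOD1, which hydroxylates lysines of the helix, had 31.9 and 31.5 CPM with gentamicin, against 28.5, 24.4 and 29.5 CPM in controls (edgeR adjusted p = 0.29, and 0.0183 with total-count scaling). PLOD3, which also glycosylates hydroxylysine, had 70.0 and 88.8 CPM with gentamicin, against 75.8, 83.4 and 82.6 CPM in controls. PLOD3 values overlapped widely (log2 fold change -0.02, edgeR adjusted p = 0.932), and the sign turned to 0.14 without gentamicin 1 and to 0.30 with total-count scaling.

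P4HA1 and P4HA2 are alternative catalytic subunits of the prolyl 4-hydroxylase that stabilises the triple helix. P4HA1 had 44.7 and 51.0 CPM in gentamicin libraries, against 38.9, 35.3 and 35.3 CPM in controls, or 1.31-fold higher (log2 fold change 0.39 ± 0.12, edgeR adjusted p = 0.0467). P4HA2 had 11.96 and 13.9 CPM with gentamicin, against 21.6, 19.4 and 17.3 CPM in controls, or 0.667 times the control level (log2 fold change -0.58 ± 0.16, edgeR adjusted p = 0.0316). The subunits thus moved in opposite directions without overlap, but both calls lay near the threshold. P4HA1 lost its call in 11 alternatives, each left-out library among them (adjusted p = 0.0503 to 0.306), and P4HA2 in 9, among them without control 1 (0.0646), control 2 (0.0687), gentamicin 1 (0.22) or gentamicin 3 (0.0983) and with total-count scaling (0.265). The weaker P4HA1 model AMEX60DD051716 had a log2 fold change of 0.32 (edgeR adjusted p = 0.266). P4HA3 was too low to test.

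SERPINH1, the collagen chaperone HSP47, had 162 and 153 CPM in gentamicin libraries in its abundant model AMEX60DDU001001261, against 201, 189 and 204 CPM in controls. Both gentamicin values were below every control, and the 1.26-fold lower level missed the threshold (log2 fold change -0.33 ± 0.11, edgeR adjusted p = 0.0543). DESeq2 called it (0.0126), while with total-count scaling the log2 fold change was -0.014 (adjusted p = 0.934). The second SERPINH1 model, at 26.7 and 29.8 CPM with gentamicin and 24.7, 24.2 and 32.4 CPM in controls, overlapped between groups (edgeR adjusted p = 0.837).

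Small leucine-rich proteoglycans bind collagen fibrils and set their spacing. Of 4 tested models 1 was higher and 0 lower, beside 13.3% and 13.4% of all genes. The model counts were the same at an unadjusted p under 0.05 and in DESeq2. BGN, or biglycan, the most abundant of them (AMEX60DD025550, chromosome 2q, 1127248657 to 1127440273), had 757 and 781 CPM in gentamicin libraries, against 485, 544 and 641 CPM in controls. It was 1.38-fold higher without overlap (log2 fold change 0.47 ± 0.14, edgeR adjusted p = 0.043), and not called without control 1 (0.107), control 2 (0.102), gentamicin 1 (0.138) or gentamicin 3 (0.179). DCN, or decorin, had 307 and 311 CPM with gentamicin, against 203, 226 and 316 CPM in controls. LUM, or lumican, which lies 280 kb from DCN on chromosome 12q, had 34.0 and 40.3 CPM with gentamicin, against 19.5, 19.1 and 39.4 CPM in controls.

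In both DCN and LUM, control 3 lay at the level of the gentamicin libraries and the other controls below them. Neither was called (edgeR adjusted p = 0.265 and 0.342), and both were called without control 3 (0.0268 and 0.00421). OGN, or osteoglycin, had 22.2 and 10.4 CPM with gentamicin, against 11.5, 25.9 and 22.8 CPM in controls, and differed more within groups than between them (log2 fold change -0.31, edgeR adjusted p = 0.691, and 0.14 on the log2 scale without gentamicin 3). FMOD, or fibromodulin, had 2 models, neither of which reached 10 counts.

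Among 8 tested models of elastic fibre and other matrix proteins, 2 fell, both fibulins, and 2 rose, both CTHRC1. Of all genes 13.4% were lower and 13.3% higher. At an unadjusted p under 0.05 there were 4 lower and 2 higher. DESeq2 called 2 of 8 lower and 2 higher, beside 12.1% and 11.2% of all genes. Fibulins link elastic fibres and basement membranes. FBLN1 had 120 and 109 CPM in gentamicin libraries, against 254, 145 and 233 CPM in controls, or 1.84-fold lower (log2 fold change -0.88 ± 0.24, edgeR adjusted p = 0.0356). FBLN2 had 29.9 and 27.3 CPM with gentamicin in model AMEX60DD024053, against 42.6, 41.5 and 52.7 CPM in controls, or 1.59-fold lower (log2 fold change -0.67 ± 0.15, edgeR adjusted p = 0.0109). FBLN5, needed for elastic fibre assembly in mice, had 38.4 and 36.9 CPM with gentamicin, against 57.0, 39.1 and 60.9 CPM in controls (edgeR adjusted p = 0.108). None of the 3 fibulins overlapped between groups, though control 2 was close to gentamicin in FBLN5. FBLN1 was not called without control 3 (0.0879), gentamicin 1 (0.16) or gentamicin 3 (0.22) and FBLN2 was not called without gentamicin 1 (0.0634) or gentamicin 3 (0.111), while FBLN5 was called without control 2 (0.00857). Scaling to total counts ended the calls of FBLN1 (0.104) and FBLN2 (0.103).

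CTHRC1, a secreted glycoprotein first found in injured rat arteries, rose in both of its models. AMEX60DD040253 had 16.5 and 20.3 CPM in gentamicin libraries, against 8.95, 8.22 and 12.6 CPM in controls, or 1.86-fold higher (log2 fold change 0.89 ± 0.22, edgeR adjusted p = 0.0175). AMEX60DD040250 had 6.37 and 5.72 CPM with gentamicin, against 2.12, 1.53 and 2.46 CPM in controls, or 2.96-fold higher (log2 fold change 1.57 ± 0.29, edgeR adjusted p = 0.00513). Neither model overlapped between groups. The calls were lost without gentamicin 1 (0.0594 and 0.0615), and that of AMEX60DD040253 also without gentamicin 3 (0.164). FBN1, the microfibril protein fibrillin, was represented by 2 models of 660 bases only, of which the more abundant had 2.08 and 3.38 CPM with gentamicin and 1.71, 2.69 and 5.35 CPM in controls (log2 fold change -0.25, edgeR adjusted p = 0.758). The FBN1 sign turned to 0.29 without control 3, to 0.056 without gentamicin 1 and to 0.069 with total-count scaling. Elastin, ELN, and the basement membrane collagen COL15A1 matched no gene name.

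The name rule also took 8 models that are not collagen enzymes. They are 6 models named LOXE, with the human name ALOXE3, a lipoxygenase of the skin barrier, and 2 named LOXHD1, a protein of inner ear hair cells. LOXE model AMEX60DD013309 had 14.8 and 6.19 CPM in gentamicin libraries, against 2.52, 1.67 and 1.95 CPM in controls, and was 5.10-fold higher (edgeR adjusted p = 0.00365). AMEX60DD013313 had 6.19 and 1.61 CPM with gentamicin, against 0.326, 0.509 and 0.434 CPM in controls, and was 8.99-fold higher (edgeR adjusted p = 0.00702, and 0.166 without gentamicin 1). The gentamicin libraries differed more than 2-fold from each other in both models, and neither was called with models summed by symbol (0.0649). AMEX60DD013309 lost its call in 4 of 15 alternatives and AMEX60DD013313 in 3 of 13. AMEX60DD013313 had only 4, 7 and 6 counts in controls 1, 2 and 3. The other tested LOXE models, AMEX60DD013302, AMEX60DD013301 and AMEX60DD013300, overlapped between groups and were not called (log2 fold changes 0.29, -0.34 and -0.08).

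Levels between genes can be compared per transcript length only, for which the deposited FPKM were used. In controls the order began with COL1A1 at 368 ± 128 FPKM, COL3A1 at 287 ± 87.1, COL1A2 at 194 ± 68.6 and BGN at 134 ± 18.1 (SD, n = 3). Spreads of neighbours overlapped, but the order was the same in each control library. In control 2 COL1A1 and COL3A1 were close, at 299 and 298 FPKM. With gentamicin the order began with COL3A1 at 465 ± 2.98 FPKM, COL1A1 at 323 ± 10.7, COL1A2 at 187 ± 2.03 and BGN at 185 ± 4.53 (SD, n = 2). COL1A2 and BGN were close, at 186.0 and 182.0 FPKM in gentamicin 1 and 188.9 and 188.4 FPKM in gentamicin 3. COL6A6 held rank 7 with gentamicin at 50.8 FPKM and rank 18 in controls at 13.66 FPKM. COL4A2 held rank 14 at 32.9 FPKM with gentamicin and rank 6 at 54.1 FPKM in controls.

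As a share of the summed FPKM of all 58 collagen models, COL3A1 took 32.5% and 32.0% in gentamicin libraries, against 20.1%, 25.9% and 22.9% in controls. COL1A1 took 22.2% and 22.7% with gentamicin, against 29.7%, 26.0% and 32.1% in controls. Collagen VI chains took 14.9% and 15.4% with gentamicin, against 8.85%, 9.20% and 8.86% in controls. Collagen IV chains took 5.97% and 5.71% with gentamicin, against 11.3%, 12.5% and 7.93% in controls.

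None of these 4 shares overlapped between groups, including in control 3. The shares of COL1A2, COL12A1 and the remaining collagens were lower with gentamicin, also without overlap. For COL1A2 they were 13.1% and 13.0% with gentamicin, against 15.4%, 13.8% and 17.0% in controls. The shares of COL18A1 and of collagen V chains overlapped. Collagen V chains took 4.39% and 4.62% with gentamicin and 4.57%, 4.49% and 4.33% in controls. These shares and the ratios below were computed after the values of the members were seen, and carry no test. A share does not depend on the scaling between libraries, but a rise in 1 collagen lowers the share of the others.

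**Figure D3:**
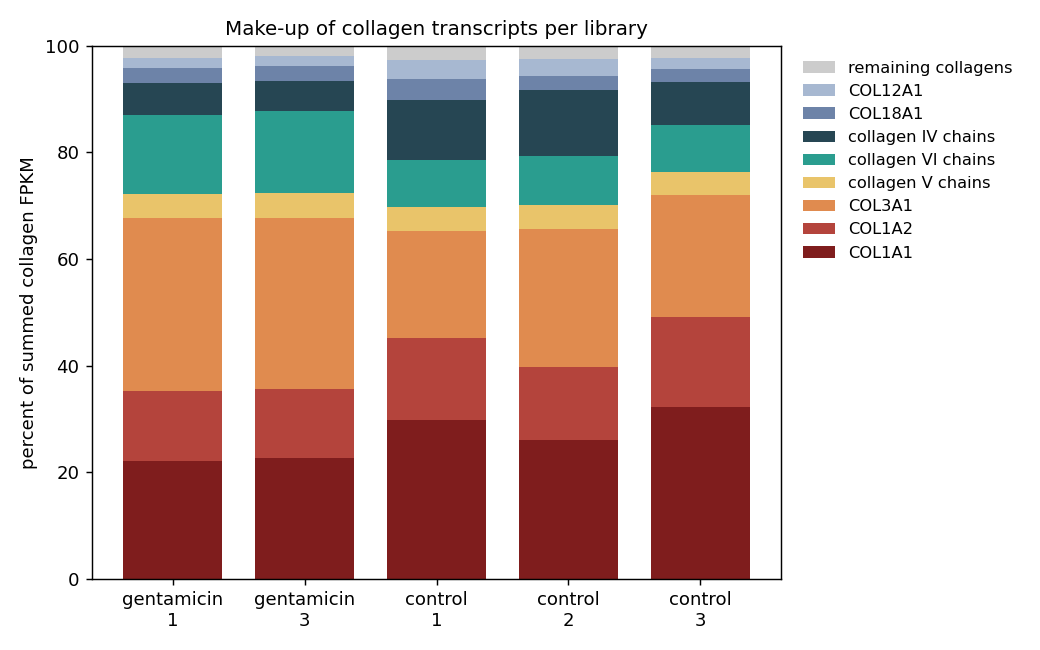
Stacked bars give the percent of the summed FPKM of the 58 collagen models taken by each chain or chain family in each library, gentamicin libraries left and control libraries right. COL3A1 (32.5% and 32.0% with gentamicin, 20.1% to 25.9% in controls) and collagen VI take wider bands with gentamicin, and COL1A1 and collagen IV narrower ones.

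Ratios between partner chains within a library were taken only for COL6A1 and COL6A2, COL1A1 and COL1A2, and COL4A1 and COL4A2. Other partner pairs, such as COL6A3 with COL6A1, were not computed. COL6A1 over COL6A2 was 1.54 and 1.72 in gentamicin libraries, against 1.62, 1.53 and 1.64 in controls. COL1A1 over COL1A2 was 1.69 and 1.75 with gentamicin, against 1.93, 1.89 and 1.89 in controls, a small shift without overlap. COL4A1 over COL4A2 was 1.37 and 1.49 with gentamicin, against 1.08, 1.36 and 1.24 in controls, also without overlap but with gentamicin 1 close to control 2.

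Further ratios were taken of COL3A1 to COL1A1, COL6A6 to COL6A3 and LOX to COL1A1, after the changes of these genes were seen. COL3A1 over COL1A1 was 1.47 and 1.41 in gentamicin libraries, against 0.676, 0.997 and 0.714 in controls. COL6A6 over COL6A3 was 1.13 and 1.16 with gentamicin, against 0.470, 0.497 and 0.381 in controls. LOX over COL1A1 was 0.0314 and 0.0356 with gentamicin, against 0.00423, 0.00418 and 0.00340 in controls. In all 3 the gentamicin libraries lay above every control, and control 3, high in COL1A1 itself, did not stand above the other controls.

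**Figure D4:**
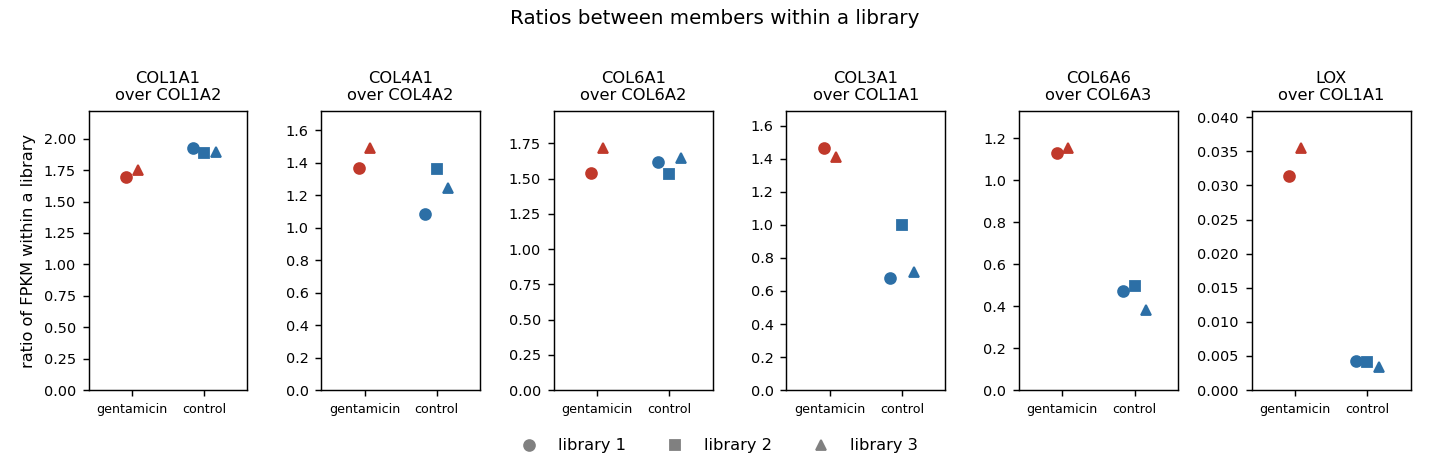
Each panel plots the ratio of the FPKM of 2 members within each library (linear axis from 0; red gentamicin, blue control, marker shape for the library number). COL6A1 over COL6A2 overlaps between groups, while COL3A1 over COL1A1, COL6A6 over COL6A3 and LOX over COL1A1 lie higher in both gentamicin libraries than in every control.

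Further genes of collagen synthesis, processing and fibre assembly were drawn from a list of 61 symbols, of which 56 had counts. Those counted as higher include AMEX60DD005218, AMEX60DD005212 and AMEX60DD005222, given the human names TLL2 or BMP1, whose identity is uncertain. Of 76 tested models 13 were higher (17.1%) and 8 lower (10.5%), with a median log2 fold change of 0.13, against 13.3% and 13.4% of all genes. Without gentamicin 1 they numbered 11 and 0, beside 5.73% and 7.48% of all genes, and without gentamicin 3 they numbered 9 and 1, beside 5.9% and 7.02%. PCOLCE, which enhances removal of the procollagen C-propeptide, had 75.6 and 78.0 CPM in gentamicin libraries, against 23.5, 21.5 and 32.9 CPM in controls, and was 2.95-fold higher (edgeR adjusted p = 0.000498). ITGA2, a subunit of a collagen-binding integrin, had 60.4 and 54.5 CPM with gentamicin, against 6.43, 4.94 and 6.86 CPM in controls, and was 9.44-fold higher (edgeR adjusted p = 5.92e-06). Neither gene overlapped between groups, and both kept their calls in all 15 alternatives, as did FBLN7, a fibulin, which was 2.21-fold higher.

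Models given the human names TLL2 (AMEX60DD005218 and AMEX60DD005212) and BMP1 (AMEX60DD005222) were 33.0-fold, 5.77-fold and 10.5-fold higher (edgeR adjusted p = 5.29e-06, 0.000306 and 0.000391). In the deposited annotation AMEX60DD005218 is also named HYTOHE and AMEX60DD005222 AMMEHE, and AMEX60DD005212 also carries a locus number. These models all lie on chromosome 11q. Their identity is uncertain, and so is whether they encode enzymes that process procollagen. The model named TLL2 alone, AMEX60DD051745, had 1.07 and 0.884 CPM with gentamicin, against 1.79, 1.67 and 2.17 CPM in controls, lower without overlap and not called (edgeR adjusted p = 0.134). The model named BMP1 alone, AMEX60DD002776, had 50.3 and 52.8 CPM with gentamicin, against 28.0, 28.8 and 34.5 CPM in controls, and was 1.70-fold higher (edgeR adjusted p = 0.00368). Both were chosen after their values were seen. Of those lower, MFAP4, a microfibril-associated protein, had 20.5 and 22.4 CPM with gentamicin, against 57.1, 36.9 and 47.7 CPM in controls (2.20-fold lower, edgeR adjusted p = 0.00324, and 0.0515 without gentamicin 1). P4HB, protein disulfide isomerase and the other subunit of prolyl 4-hydroxylase, had 766 and 728 CPM with gentamicin, against 1022, 1025 and 1016 CPM in controls. P4HB was 1.37-fold lower (edgeR adjusted p = 0.0202), and not called without gentamicin 1 (0.0637) or gentamicin 3 (0.102) or with total-count scaling (log2 fold change -0.13, adjusted p = 0.361). LTBP4, which holds latent TGF-beta in the matrix, was 2.09-fold lower in model AMEX60DD024620 (edgeR adjusted p = 0.0131), and not called without gentamicin 1 (0.121) or gentamicin 3 (0.104). SEC23A and MIA2, which serve the export of procollagen from the endoplasmic reticulum, were 1.48-fold and 1.40-fold lower. SEC23A was not called without gentamicin 1 (0.073) or gentamicin 3 (0.177), nor was MIA2 (0.0798 and 0.183). Total-count scaling ended both calls (log2 fold changes -0.25 and -0.17, adjusted p = 0.199 and 0.337).

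**Figure D5:**
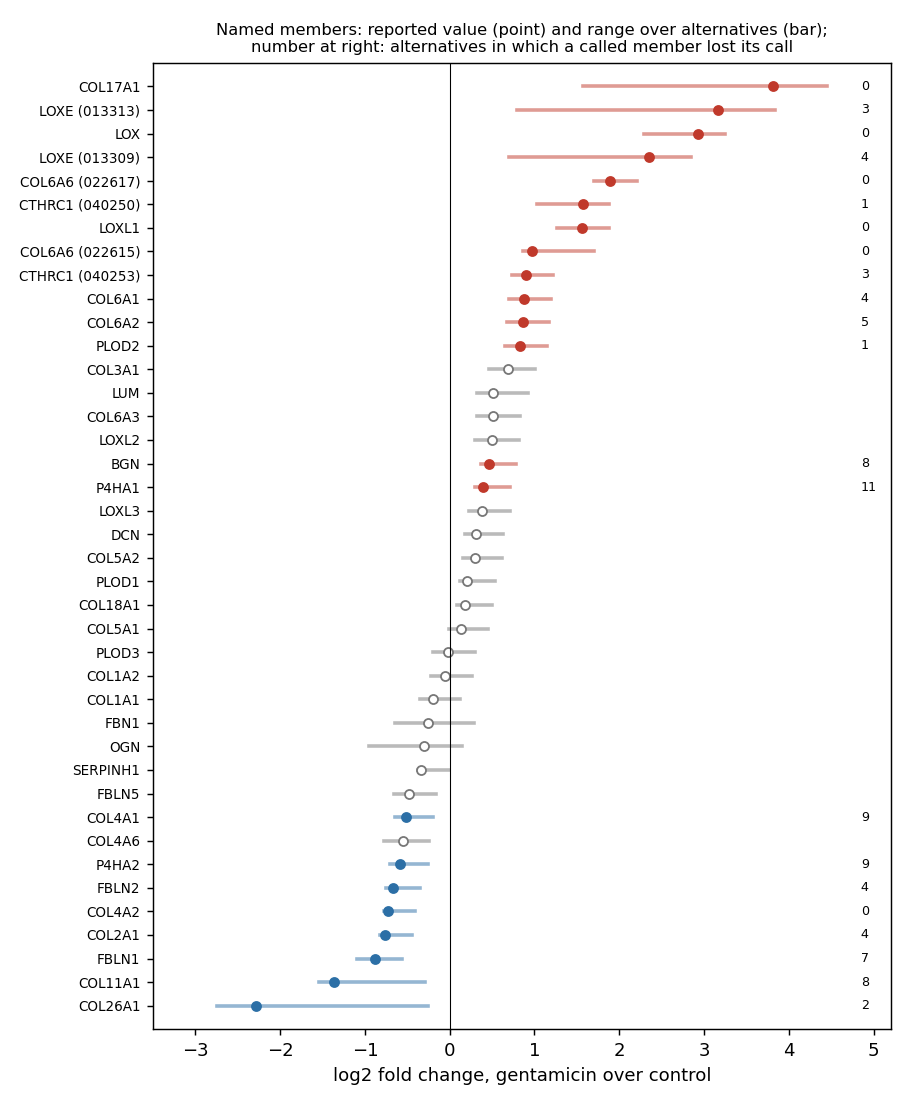
For each of 40 named members the point is the reported log2 fold change of gentamicin over control (filled where called, red higher and blue lower) and the bar its range over the alternative settings, with the number of alternatives that lost a call at right. COL17A1, LOX, LOXL1, both COL6A6 models and COL4A2 show 0 lost calls, while P4HA1 shows 11.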

How the data were processed

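Per the labels' protocols, total RNA was extracted with TRIzol and libraries were made with an NEBNext Ultra RNA kit. Tools named in the submitters' processing notes are HISAT2 2.0.5 for alignment, featureCounts 1.5.0-p3 for counting, CASAVA 2.19, fastp and DESeq2 1.20.0. Neither the genome build nor the strand setting is stated in the sources used here, and coordinates are those of the deposited tables. The names of the deposited tables are exchanged: that named for FPKM holds raw read counts (100% whole numbers), and that named for counts holds FPKM, each column times 1 factor (0.8387 to 1.0943) of unstated origin. Unused per-sample columns numbered 0.

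The members, gene lists, tests and rule for naming genes were chosen with earlier results of these data known. Counts were fitted over all genes with edgeR 4.0.16 in R 4.3.3: filterByExpr (minimum count 10, total 15), TMM factors (0.901 to 1.17), a robust quasi-likelihood fit with group as the only term, and two-sided tests with Benjamini-Hochberg adjustment over 22006 genes. With 1 library per animal, p-values measure the spread between animals. CPM are TMM-scaled. SE is the absolute log2 fold change over the root of F. Ratios against 1 to 3 counts carry exact Clopper-Pearson intervals. Named with values were the main symbols of each role where tested (the most abundant model of each), up to 4 further called members per role, and up to 6 other pathway genes per direction.

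Alternatives were DESeq2 1.42.0, its size factors, total-count scaling, no filter, a mean CPM of at least 1, models summed by symbol, the label number as a block, each library left out, and limma 3.58.1 on log2(FPKM + 1) or log2(FPKM + 0.1) where mean FPKM reached 0.5, or unfiltered. Where 1 gentamicin library is left, its spread is taken from the controls. The procedure was also run on simulated data with the same dispersion for every gene and few changed genes. These data differ from that setting, so the run does not show how the test performs here.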

Additional observations from a re-analysis of the deposited data

How the results depend on the processing

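Over 15 alternatives, 6 of 22 named called members (COL17A1, COL4A2, both COL6A6 models, LOX, LOXL1) kept their calls, 16 lost theirs in at least 1, and 12 named members not called were called in at least 1. With total-count scaling 6192 genes were higher and 1895 lower, members 25 and 3, fibrillar 3 and 0, collagen IV lower 1, other collagens higher 8, enzymes 8 and 0, proteoglycans and other matrix genes lower 0, and other pathway genes 22 and 2. On unfiltered log2(FPKM + 1) these were 1796 and 1828 for all genes, 7 and 1 for members, 0 lower fibrillar, 1 lower collagen IV, 3 and 0 other collagens, 0 lower enzymes, 1 and 0 proteoglycans and other matrix genes, and 2 lower other pathway genes. On filtered log2(FPKM + 1) and log2(FPKM + 0.1) alike, the lower counts were 3 for members, 1 for fibrillar collagens, 1 for collagen IV, 0 for other collagens, 0 for enzymes and 1 for proteoglycans and other matrix genes. With no filter on low counts 15 members, 5 other collagens and 4 proteoglycans and other matrix genes were lower and 1 fibrillar collagen was higher. With a mean CPM of at least 1, 1 other collagen and 2 enzymes were lower. DESeq2 called 1 fibrillar collagen higher and 2 enzymes lower, DESeq2 size factors 2 enzymes lower, and summed models 1 fibrillar collagen lower. In DESeq2, 11.2% of all genes were higher and 12.1% lower. For the filtered FPKM fits, no filter, the mean CPM, the size factors and the summed models, counts over all genes are not given here. Member counts in those settings therefore cannot be read as particular to the members. As a share of total counts the log2 ratio of gentamicin over control was 0.53 for summed members and -0.29 for collagen IV, against 0.21 and -0.61 on TMM-scaled CPM.

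With 1 library left out, all genes ranged from 1333 to 2770 higher and from 1627 to 2963 lower, members from 6 to 18 and from 1 to 10, fibrillar collagens from 0 to 2 and from 0 to 2, collagen IV lower from 1 to 3, other collagens from 3 to 6 and from 0 to 4, enzymes from 2 to 3 and from 0 to 1, proteoglycans and other matrix genes from 0 to 5 and from 0 to 3, and other pathway genes from 9 to 17 and from 0 to 9. Reversed log2 fold changes were COL1A1 (0.12 with total counts, 0.11 without control 3), COL1A2 (0.26 in both, and 0.0082 and 0.0079 in the FPKM fits with pseudocounts of 0.1 and 1), COL5A1 (-0.0080 without control 1), PLOD3 (0.30 with total counts, 0.14 without gentamicin 1), OGN (0.14 without gentamicin 3) and FBN1 (0.069 with total counts, 0.29 without control 3, 0.056 without gentamicin 1). With 1 library left out these ranged from -0.35 to 0.11 for COL1A1, -0.22 to 0.26 for COL1A2, -0.0080 to 0.31 for COL5A1, -0.20 to 0.14 for PLOD3, -0.95 to 0.14 for OGN and -0.64 to 0.29 for FBN1. The cause was not tested, beyond the smaller group that a left-out library leaves.

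Whether the label numbers pair animals is not known. The correlation of deviations from the group means was -0.036 for library 1 and 0.062 for library 3. With 2 gentamicin libraries the deviations mirror each other, so these values cannot decide it. With the number as a replicate block, 2118 genes were higher and 2367 lower, 11 members higher and 9 lower, and the lower counts were 1 for fibrillar collagens, 1 for collagen IV, 4 for other collagens, 0 for enzymes and 4 for other pathway genes. With 2 gentamicin animals, members under the floor of 0.156 to 0.244 TMM-scaled CPM were not resolved.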
